A study of Homo sapiens with 2 samples.

Results

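The genes described here write and erase DNA methylation or form the core of Polycomb repressive complex 2 (PRC2). They are DNMT1, DNMT3A and DNMT3B, the DNA methyltransferases, TET1, TET2 and TET3, the methylcytosine dioxygenases, and EZH1, EZH2, SUZ12 and EED, the PRC2 core. Members were the RefSeq transcripts of these 10 genes together with the stranded transcripts assembled from the reads that share an intron with them, and all 10 were found among 24904 genes with a row in both libraries. RNA was sequenced from A549 cells, derived from a human lung adenocarcinoma, that carried an shRNA against PSPC1 (shPSPC1, 1 library) or an shRNA against LacZ, a bacterial gene absent from human cells (shLacZ, 1 library). Both lines were grown in the same serum-containing medium, and the hairpin sequences, the time since their introduction and whether the cells were a pool or a clone are not given in the sources used here. With 1 library per group, no difference below has a replicate check and no p-value can be given.

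Methylation of cytosine in CpG sites is copied after replication mainly by DNMT1 and set on unmethylated DNA by DNMT3A and DNMT3B. TET enzymes oxidise the methyl group, which opens a route to its removal through base excision repair. PRC2 methylates lysine 27 of histone H3, with EZH2 or EZH1 as the catalytic subunit and with SUZ12 and EED needed for activity. PSPC1, a paraspeckle RNA-binding protein, is a reported partner of TET2, and the comparison asks how RNA of these enzymes stood when PSPC1 was reduced.

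Values are FPKM, sequenced fragments corrected for transcript length and for library depth, summed over the transcripts of a gene. Each ± is a half-width built from the authors' 95% Cufflinks intervals of single transcripts. These reflect counting and the assignment of fragments inside 1 library, not differences between cultures. For a gene with several transcripts the half-widths were joined as a root of summed squares, as if the estimates were independent. Depth was estimated from the files at about 57100000 fragments in the shPSPC1 library and 56200000 in the shLacZ library. PSPC1 itself stood at 17.7 ± 0.86 FPKM in shPSPC1 cells, against 31.5 ± 1.25 FPKM in shLacZ cells, a log2 ratio of -0.79. Of 10 epithelial markers, 9 reached 1 FPKM in each library, with a summed 3077 FPKM in shPSPC1 and 3892 FPKM in shLacZ. Of 10 leukocyte markers, 2 reached 1 FPKM, CD68 and CD14, and PTPRC was below 0.01 FPKM in both libraries. None of 10 fibroblast and endothelial markers reached 1 FPKM.

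Several of the genes have alternative exons whose use is described below, and their sequences are shown so that each form can be recognised. Letters are the transcript strand, taken from GENCODE 29 transcripts whose exon and intron lengths match, with the alternative part in capitals and 12 bases of each neighbouring exon in lower case. The EZH2 exon at chr7:148529726-148529842 on the minus strand, in the files' coordinates, was absent from a larger share of EZH2 in shPSPC1 cells.
EZH2 117-base exon: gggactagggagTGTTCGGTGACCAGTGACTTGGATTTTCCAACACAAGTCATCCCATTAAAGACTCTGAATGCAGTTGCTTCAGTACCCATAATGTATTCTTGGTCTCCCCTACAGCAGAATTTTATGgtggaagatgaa
The 27 bases at chr7:148543562-148543588 end the exon just before it and were left out of 1 form that was listed above 0 in shLacZ cells only.
EZH2 27-base exon end: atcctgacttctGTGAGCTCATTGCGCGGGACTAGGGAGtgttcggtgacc
DNMT3B has a pair of coding exons within chr20:31393144-31394133 on the plus strand that belong to its catalytic domain, and a separate exon at chr20:31381342-31381401.
DNMT3B exon pair, 189 bases: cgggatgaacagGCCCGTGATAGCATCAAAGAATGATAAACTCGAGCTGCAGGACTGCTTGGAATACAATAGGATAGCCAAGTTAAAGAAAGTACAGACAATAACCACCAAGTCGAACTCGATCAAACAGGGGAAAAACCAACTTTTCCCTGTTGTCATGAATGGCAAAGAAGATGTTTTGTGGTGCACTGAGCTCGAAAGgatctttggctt
DNMT3B 60-base exon: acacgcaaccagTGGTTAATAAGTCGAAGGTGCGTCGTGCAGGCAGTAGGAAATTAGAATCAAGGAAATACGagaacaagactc
The TET2 exon at chr4:106162496-106162586 on the plus strand was skipped in a form assembled in shPSPC1 cells.
TET2 91-base exon: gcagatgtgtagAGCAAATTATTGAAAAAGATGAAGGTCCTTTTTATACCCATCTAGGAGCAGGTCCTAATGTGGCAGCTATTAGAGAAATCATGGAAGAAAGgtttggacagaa

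Most of the 10 genes stood at nearly the same levels in both libraries, and DNMT3A and TET1 differed most by summed FPKM. A rule of size took the place of a test: at least 1 FPKM in the higher library, a difference of 2-fold or more up or down (log2 scale, pseudocount of 1), and 95% intervals lying apart. None of the 10 genes passed it, and neither did PSPC1 itself, at a log2 ratio of -0.79. Among 11508 genes at 1 FPKM or more in either library, 418 passed, which is 3.63%, so a count of 0 among 10 genes is near the background. With a 1.5-fold limit the count was again 0 of 10 by both measures, against 9.77% of all genes by summed FPKM and 7.43% by estimated fragments. The log2 ratio was below 0 for 8 of the 10 genes, against 49% of the 10825 genes that reached 1 FPKM in each library, and its median was -0.05, beside 0.01 over all those genes.

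Because a short assembled transcript needs few fragments to reach a given FPKM, a second measure was used. Fragments were estimated for each transcript from its FPKM, its length and the depth of the library, and were summed over the gene. By this measure also 0 of 10 genes passed the rule, beside 3.16% of all genes, 7 of 10 lay below 0, beside 49.3% of all genes, and the median log2 ratio was -0.03. The 10 log2 ratios by fragments ran between -0.15 and 0.12, and by summed FPKM between -0.26 and 0.27. The pseudocount of 1 draws ratios of genes near 1 FPKM toward 0, so for them the rule asked for more than a 2-fold difference. Without a pseudocount, TET1 in shPSPC1 cells had 72.3% of its summed FPKM in shLacZ cells, and DNMT3A had 131%. By fragments these were 122% for TET1 and 101% for DNMT3A. With a pseudocount of 0.1 the log2 ratios of summed FPKM were -0.43 for TET1 and 0.37 for DNMT3A.

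**Figure D1:**
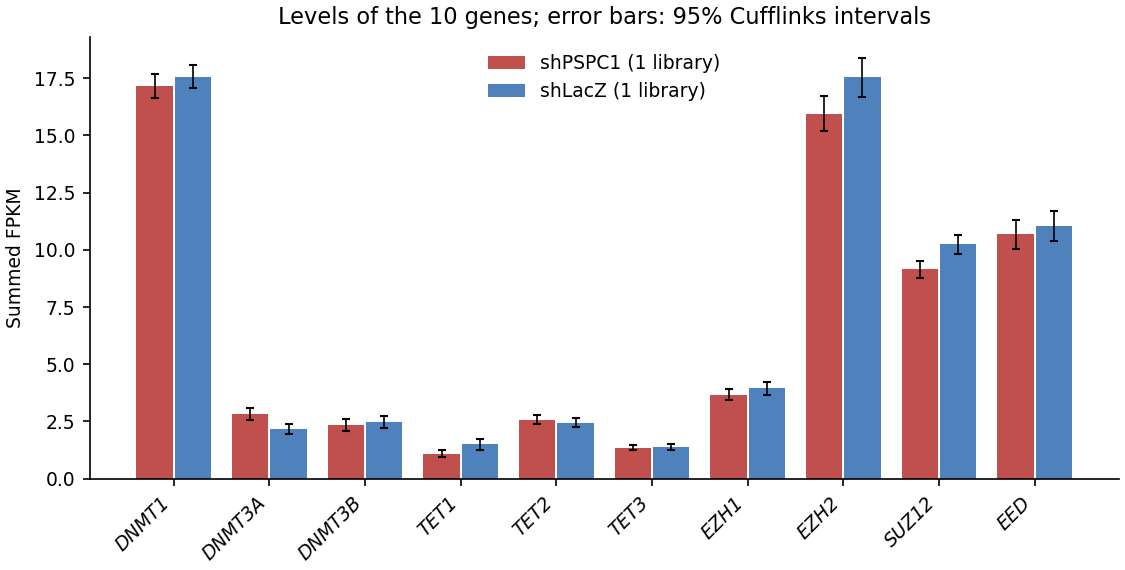
Summed FPKM (vertical axis) of each of the 10 genes in the shPSPC1 library (red, left bar) and the shLacZ library (blue, right bar), with intervals joined from the 95% Cufflinks intervals of its transcripts. DNMT1 and EZH2 are highest in both libraries and TET1 and TET3 lowest, and the paired bars are close in height.

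The order of levels by summed FPKM was similar in both libraries. DNMT1 and EZH2 came first, with overlapping intervals, followed by EED, SUZ12 and EZH1. The intervals of EED and SUZ12 were apart in shPSPC1 and overlapped in shLacZ, and by fragments their order turned round, with EED at 0.956 times SUZ12 in shPSPC1 and 0.885 times in shLacZ. The lower 5 genes were DNMT3A, DNMT3B, TET2, TET1 and TET3. In shPSPC1 cells neighbours in the order DNMT3A, TET2 and DNMT3B had overlapping intervals, as did TET3 and TET1, and in shLacZ cells the same held for DNMT3B, TET2 and DNMT3A and for TET1 and TET3. DNMT1 was at percentile 70.3 of the expressed genes in shPSPC1 and 70.7 in shLacZ, whereas TET1 was at percentile 4.10 in shPSPC1 and 8.98 in shLacZ. These percentiles are of summed FPKM, and by fragments put on 1 length per gene TET1 had 0.82 FPKM in shPSPC1 and 0.67 FPKM in shLacZ.

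DNMT1, the maintenance methyltransferase (chr19:10244022-10305755, minus strand), had 17.2 ± 0.54 FPKM in shPSPC1 cells and 17.6 ± 0.49 FPKM in shLacZ cells, with overlapping intervals and a log2 ratio of -0.03. By fragments it had 5076 in shPSPC1 and 5126 in shLacZ, and the log2 ratio was -0.04. The total was therefore within counting error, while its make-up was not the same. Transcript NM_001379.2 carried 14.4 FPKM in shPSPC1 cells and 17.6 FPKM in shLacZ cells. An assembled form with 39 exons and 4 introns that RefSeq lacks carried 2.78 FPKM in shPSPC1 cells and was not assembled in shLacZ cells. The longer annotated form with a 48-base additional exon was listed at 0 in both.

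DNMT3A, a de novo methyltransferase (chr2:25455830-25565459, minus strand), had 2.82 ± 0.24 FPKM in shPSPC1 cells and 2.16 ± 0.21 FPKM in shLacZ cells. The intervals were apart and the log2 ratio was 0.27, but there were 772 fragments in shPSPC1 and 751 in shLacZ, with overlapping intervals and a log2 ratio of 0.01. The forms that made up the sum differed between the libraries. The full-length NM_022552.4 had 1.71 FPKM in shPSPC1 and 1.19 FPKM in shLacZ. The rest was in assembled forms that run past the annotated 3′ end, 1 in shPSPC1 cells and 2 in shLacZ cells. In shLacZ cells 1 of these, at 0.392 FPKM, began 208 bases downstream of the start of the shorter DNMT3A form NM_153759.3, which itself was listed at 0 in both libraries.

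DNMT3B, the other de novo methyltransferase (chr20:31350191-31397162, plus strand), had 2.34 ± 0.26 FPKM in shPSPC1 cells and 2.48 ± 0.27 FPKM in shLacZ cells. Fragments numbered 526 in shPSPC1 and 530 in shLacZ, a log2 ratio of -0.02. The leading form in both was NM_175849.1, which lacks the 189-base exon pair of the catalytic domain and is known as catalytically inactive, at 1.19 FPKM in shPSPC1 and 1.24 FPKM in shLacZ. Of the FPKM that spans this stretch, 21.2% included the pair in shPSPC1 cells and 20.9% in shLacZ cells. The full-length NM_006892.3 accounted for the inclusion in shPSPC1 cells, at 0.497 FPKM, and was listed at 0 in shLacZ cells, where an assembled form starting inside the gene carried the pair at 0.519 FPKM. The 60-base exon was included in 21.2% in shPSPC1 and 36.7% in shLacZ. The FPKM that included it was 0.497 ± 0.12 in shPSPC1 and 0.72 ± 0.15 in shLacZ, with overlapping intervals. In shLacZ it came from 1 form assembled in that library only. DNMT3B was below the 5 FPKM asked for by the rule on transcript shares described further below. NM_001207055.1 stood at 0.651 FPKM in shPSPC1 cells and was listed at 0 in shLacZ cells.

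The ratio of DNMT1 to both de novo enzymes together was 3.32 in shPSPC1 cells and 3.78 in shLacZ cells by summed FPKM. By fragments put on 1 length per gene it was 3.14 in shPSPC1 and 3.21 in shLacZ.

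**Figure D2:**
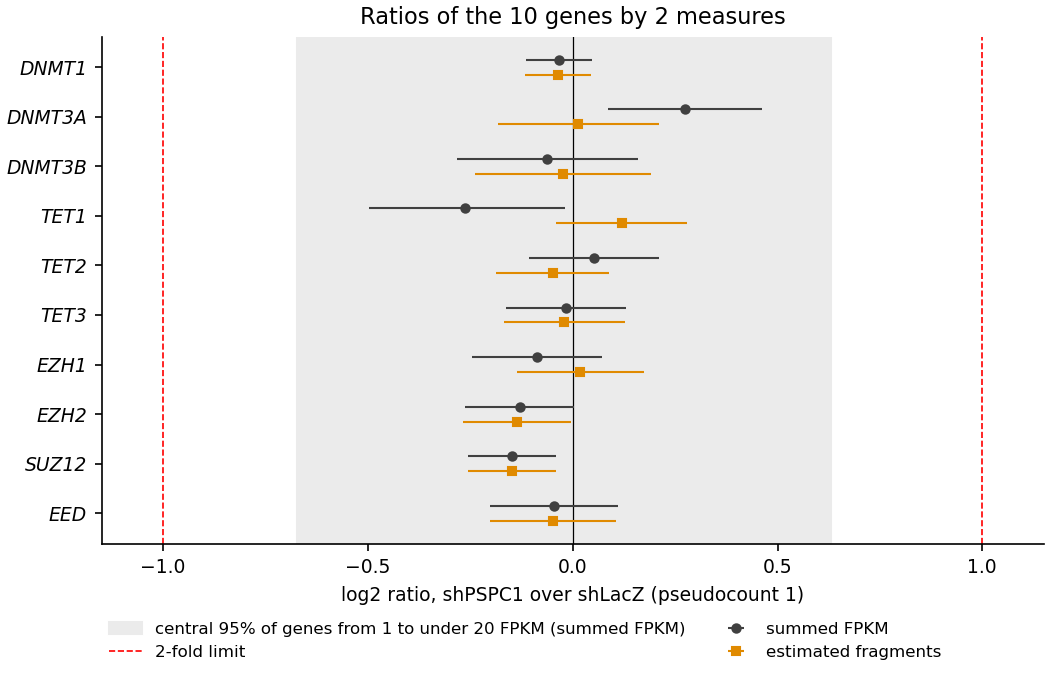
Log2 ratio of shPSPC1 over shLacZ (horizontal axis) of each gene by summed FPKM (grey circles) and by estimated fragments (orange squares), with bars from the 95% intervals of both libraries. All 20 points lie inside the grey band, which holds the central 95% of genes from 1 to under 20 FPKM, and DNMT3A and TET1 move most between the measures.

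The TET enzymes were, with DNMT3A and DNMT3B, the lower 5 of the 10 genes by summed FPKM, and RefSeq transcripts held little or none of the FPKM of TET1 and TET3. TET2, the reported PSPC1 partner (chr4:106067032-106200960, plus strand), had 2.57 ± 0.20 FPKM in shPSPC1 cells and 2.44 ± 0.19 FPKM in shLacZ cells. The intervals overlapped and the log2 ratio was 0.05. By fragments it had 1094 in shPSPC1 and 1132 in shLacZ, a log2 ratio of -0.05. The sign of this small difference therefore depended on the measure.

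The full-length TET2 transcript NM_001127208.2, which encodes the catalytic domain, had 1.21 FPKM in shPSPC1 cells and 1.33 FPKM in shLacZ cells, with overlapping intervals. A 9-exon form assembled in shPSPC1 cells only, at 1.13 FPKM from an estimated 308 fragments, lacked the 91-base exon shown above. Through this form alone, 48.3% of the spanning FPKM skipped the exon in shPSPC1 cells and 0% in shLacZ cells. TET2 was below the 5 FPKM asked for by the rule on transcript shares described further below. Among genes that could be put to that rule, 41.6% had a share change of at least 0.3 with intervals apart. The length of the 91-base exon is not a multiple of 3. Forms that stop upstream of the last intron were NM_017628.4, at 0.237 FPKM in shPSPC1 cells and listed at 0 in shLacZ cells, and a 4-exon assembled form at 0.758 FPKM in shLacZ cells only. The 4-exon form splices into the 91-base exon but ends before the next exon. It was counted as including the exon in the 0% above. The last intron of the gene was spanned by 2.33 FPKM in shPSPC1 and 1.69 FPKM in shLacZ. In shPSPC1 this included the 9-exon form at 1.13 FPKM, which ends shortly after that intron, and NM_001127208.2 at 1.21 FPKM. In shLacZ it was NM_001127208.2 at 1.33 FPKM and an 11-exon assembled form at 0.352 FPKM, both with the 91-base exon. The direction therefore depended on whether the 9-exon form is counted. Beside these, pieces with no strand lay inside TET2, with 209 fragments in shPSPC1 and 13 in shLacZ. With intervals apart, such fragments were higher in shPSPC1 inside TET2 and EED and lower inside DNMT3A and TET3. EED in shLacZ and TET3 in shPSPC1 had no piece, and their interval was then taken as 0 with no width. Over all genes, such fragments were higher in shPSPC1 for 16.8% of all genes and lower for 9.91%, with intervals apart.

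TET1 (chr10:70320117-70454239, plus strand) had 1.08 ± 0.15 FPKM in shPSPC1 cells and 1.499 ± 0.23 FPKM in shLacZ cells, with intervals apart and a log2 ratio of -0.26. By fragments it had 441 in shPSPC1 and 357 in shLacZ, a log2 ratio of 0.12 with overlapping intervals, so its direction turned round with the measure. The annotated TET1 transcript was listed at 0 in both libraries and all of its FPKM lay in assembled forms. Forms starting about 40 kb inside the gene were assembled in both libraries, but their extent differed. In shPSPC1 they began 40002 and 40117 bases from the annotated start and ran past the annotated 3′ end. In shLacZ 1 began at 39971 bases and another at 76354 bases, and both stopped before the last intron. That intron was spanned by 0.799 FPKM in shPSPC1, 73.7% of TET1 FPKM, and by 0.356 FPKM in shLacZ, 23.7%. A shorter TET1 that lacks the amino-terminal CXXC domain has been described from an internal start, as background. Whether any form here is that one was not tested. Forms starting inside the gene held 61.2% of TET1 FPKM in shPSPC1 cells and 76.3% in shLacZ cells, but 65.7% of its fragments in shPSPC1 and 45.1% in shLacZ.

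TET3 (chr2:74273450-74335303, plus strand, for the annotated transcript) had 1.35 ± 0.12 FPKM in shPSPC1 cells and 1.38 ± 0.12 FPKM in shLacZ cells, with overlapping intervals. Its fragments numbered 857 in shPSPC1 and 864 in shLacZ, and both log2 ratios were -0.02. Most TET3 forms began upstream of the annotated start, by 43235 to 60867 bases in shPSPC1 and by 60790 and 61468 bases in shLacZ. They held 100% of TET3 FPKM in shPSPC1 cells and 82.1% in shLacZ cells. Its accession was tied to TET3 through the lengths of all 7 internal exons.

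The 3 TET genes together summed to 5.005 FPKM in shPSPC1 cells and 5.32 FPKM in shLacZ cells, and by fragments to 4.198 FPKM in shPSPC1 and 4.19 FPKM in shLacZ.

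**Figure D3:**
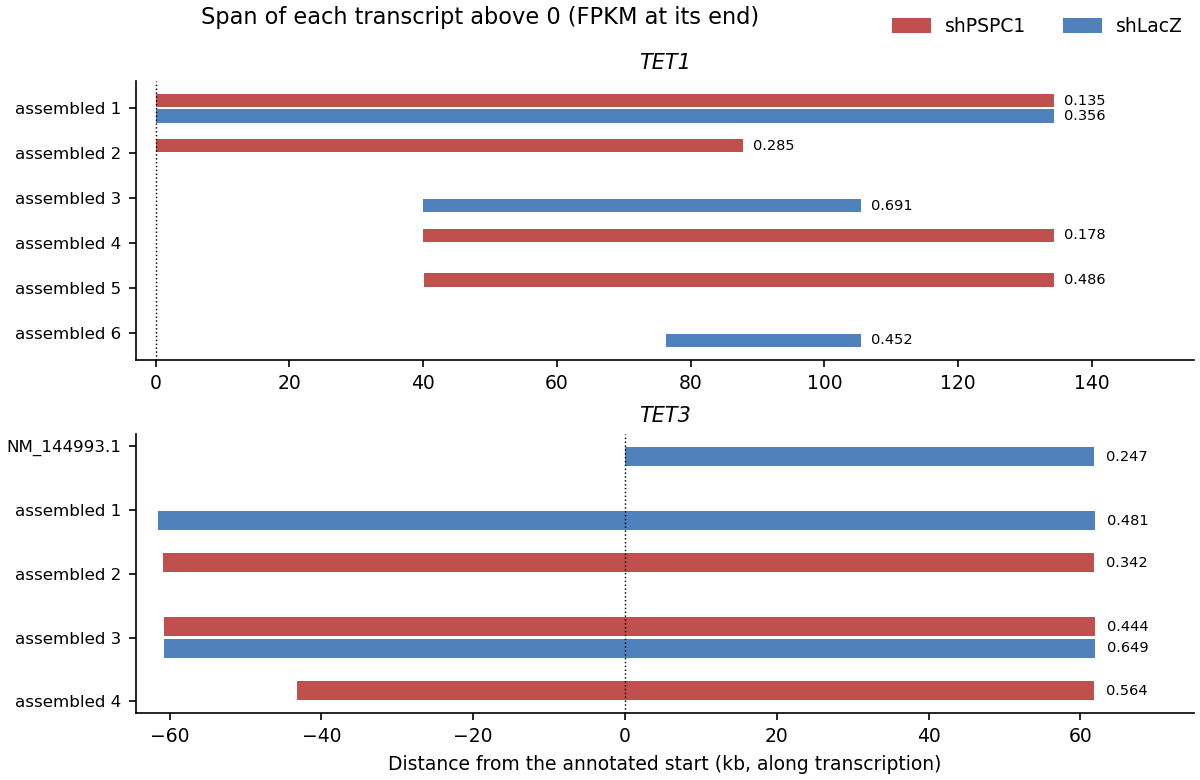
Span of each TET1 and TET3 transcript above 0 along the gene, as distance in kb from the annotated start, in shPSPC1 (red, upper bar) and shLacZ (blue, lower bar), with its FPKM at the right end. TET1 forms starting about 40 kb inside the gene appear in both libraries but end earlier in shLacZ. Nearly all TET3 forms begin left of the annotated start.

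The PRC2 core genes all lay slightly below 0 by summed FPKM, with log2 ratios between -0.15 and -0.05. EZH2, the main catalytic subunit in dividing cells (chr7:148504464-148581441, minus strand), had 16.0 ± 0.78 FPKM in shPSPC1 cells and 17.5 ± 0.85 FPKM in shLacZ cells, a log2 ratio of -0.13 with intervals that just overlapped. By fragments it had 2289 in shPSPC1 and 2489 in shLacZ, a log2 ratio of -0.14 with intervals apart. Intervals were apart at any size for 50.4% of all genes by summed FPKM and 47.5% by fragments, so this holds for about as many genes as not.

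Within EZH2 the form NM_152998.2, which lacks the 117-base exon, had 4.38 FPKM (interval 3.92 to 4.84) in shPSPC1 cells and 2.81 FPKM (2.43 to 3.20) in shLacZ cells. It made up 27.5% of EZH2 FPKM in shPSPC1 and 16.0% in shLacZ, a difference of 11.4 percentage points, or 11.1 by fragments. The leading form NM_001203247.1 had 11.6 FPKM in shPSPC1 and 12.02 FPKM in shLacZ. The form without the 27 bases, NM_001203248.1, was listed at 0 in shPSPC1 cells and stood at 2.71 FPKM in shLacZ cells. Forms with the 15-base longer exon were listed at 0 in both. A rule on transcript shares asked for 5 FPKM in both libraries and more than 1 transcript, which 3 of the 10 genes met. With a limit of 0.3 on the change in a share, 0 of 3 passed, beside 41.6% of all such genes, or 9.72% when RefSeq transcripts alone were counted. With a limit of 0.1, DNMT1 and EZH2 passed, beside 64.6%, and EZH2 alone with RefSeq transcripts only, beside 26.6%. A change of the size seen in EZH2 was thus common among all genes.

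EZH1, the catalytic subunit prominent in resting cells (chr17:40852293-40897071, minus strand), had 3.66 ± 0.24 FPKM in shPSPC1 cells and 3.95 ± 0.29 FPKM in shLacZ cells. The gene had 937 fragments in shPSPC1 and 907 in shLacZ, a log2 ratio of 0.02. A 2-exon piece of its 3′ end was assembled at 1.06 FPKM in shLacZ cells only, and the RefSeq transcript alone had 3.66 FPKM in shPSPC1 and 2.89 FPKM in shLacZ. EZH2 exceeded EZH1 by 4.36 times in shPSPC1 and 4.44 times in shLacZ.

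SUZ12, the scaffold subunit (chr17:30264044-30328057, plus strand), had 9.14 ± 0.39 FPKM in shPSPC1 cells and 10.2 ± 0.41 FPKM in shLacZ cells. The log2 ratio was -0.15 by both measures, with intervals apart in both, on 2252 fragments in shPSPC1 and 2483 in shLacZ. Its pseudogene SUZ12P1 is a near copy, and how fragments were split between them is uncertain: SUZ12P1 had 2.80 FPKM in shPSPC1 and 9.06 FPKM in shLacZ, but 475 fragments in shPSPC1 and 645 in shLacZ. EED, the reader of the H3K27 methyl mark (chr11:85955806-85989785, plus strand), had 10.7 ± 0.64 FPKM in shPSPC1 cells and 11.05 ± 0.65 FPKM in shLacZ cells, with overlapping intervals. SUZ12 and EED each had a single transcript above 0 in both libraries.

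**Figure D4:**
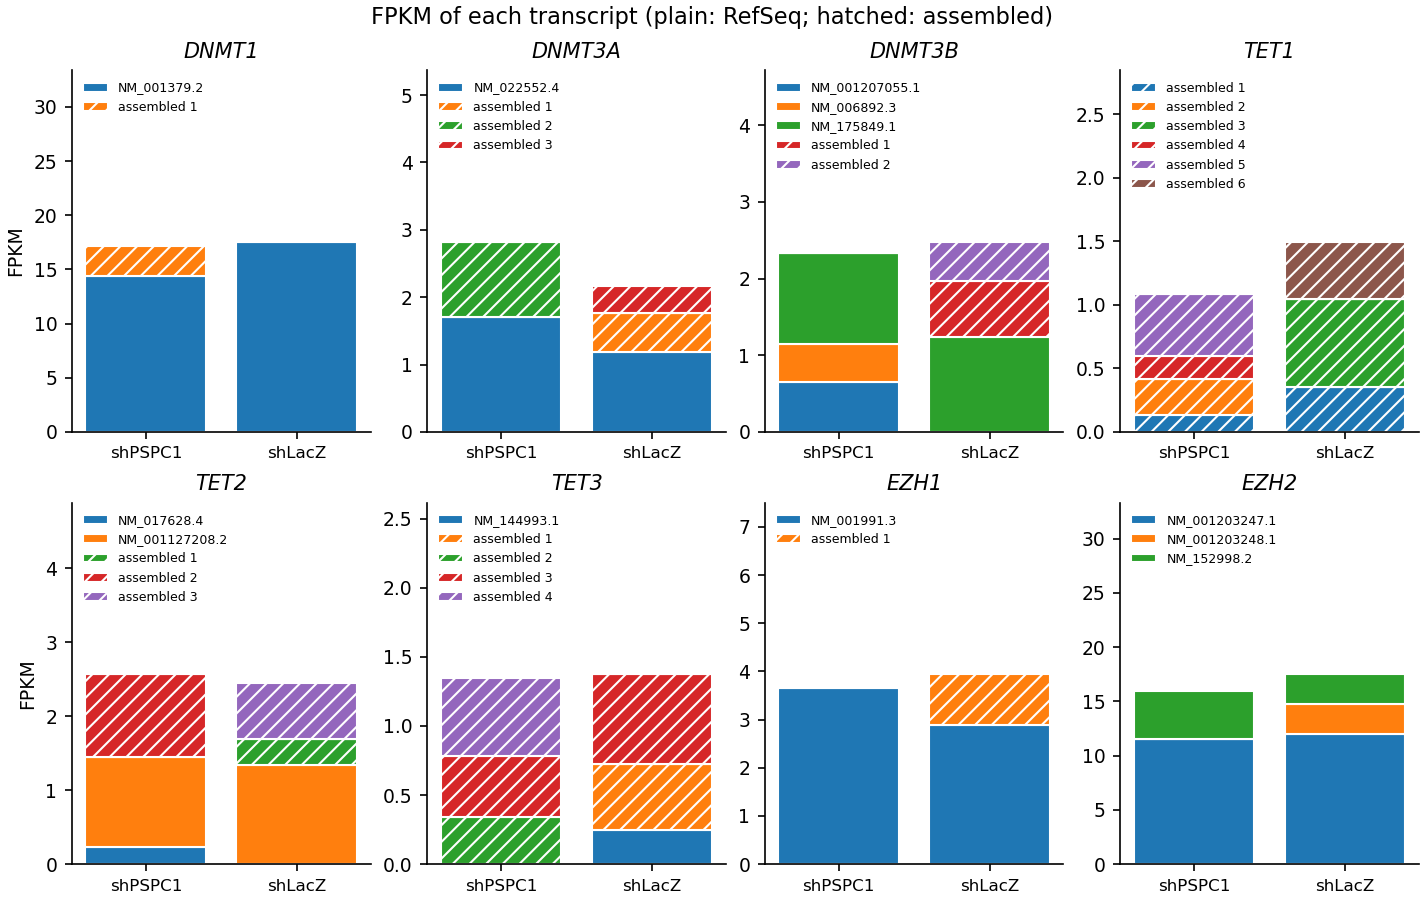
FPKM of each transcript (stacked, vertical axis; plain bars RefSeq, hatched bars assembled) in shPSPC1 (left) and shLacZ (right) for the 8 genes with more than 1 form above 0. Total heights are close in most of them and differ most in DNMT3A and TET1. The forms within DNMT3A, DNMT3B, TET1, TET2 and TET3 mostly differ between the libraries, and NM_152998.2 of EZH2 is taller in shPSPC1.

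Lists of genes that work with these enzymes showed few differences past the rule. Of 10 DNA methylation cofactors, 12 methyl-CpG and CpG readers, 18 TET partners and demethylation genes, 11 PRC2 accessory subunits and 15 H3K27 demethylases and antagonists, the 1 FPKM minimum was reached in either library by 8, 11, 18, 9 and 13, in that order. Of these 0 rose and 0 fell by either measure, beside 1.67% of all genes higher and 1.96% lower by summed FPKM and 1.49% higher and 1.67% lower by fragments. PSPC1 is among the TET partners, and its log2 ratio of -0.79, or -0.80 by fragments, also fell short of the limit. A difference the size of the PSPC1 reduction is therefore not called by the rule. UHRF1, which guides DNMT1 to replicated DNA, had 18.2 ± 0.69 FPKM in shPSPC1 cells and 29.2 ± 1.34 FPKM in shLacZ cells, a log2 ratio of -0.65, but -0.16 by fragments. HELLS, a chromatin remodeller needed for normal DNA methylation, had 31.7 FPKM in shPSPC1 and 29.9 FPKM in shLacZ, a log2 ratio of 0.08, but -0.58 by fragments. PCNA, the replication clamp, had 428 FPKM in shPSPC1 and 467 FPKM in shLacZ, a log2 ratio of -0.13, but 0.05 by fragments.

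Among the readers the median log2 ratio was 0.17, or 0.08 by fragments. Of the 11 genes above the 1 FPKM minimum, 1 lay below 0, beside 49% of all genes, or 3 by fragments, beside 49.3%. MBD2 had 52.9 FPKM in shPSPC1 and 40.3 FPKM in shLacZ, a log2 ratio of 0.39, but 0.16 by fragments. MBD3 had 23.2 FPKM in shPSPC1 and 24.4 FPKM in shLacZ. MBD2 and MBD3 are methyl-CpG-binding-domain proteins of the NuRD complex. CXXC5, a CpG-binding protein picked out after its values were seen, had 9.07 FPKM in shPSPC1 and 4.59 FPKM in shLacZ. Its log2 ratio was 0.85, or 0.95 by fragments, below the limit. HDAC2, in the list of TET partners and also picked out after its values were seen, went the other way. It had 6.24 FPKM in shPSPC1 and 13.1 FPKM in shLacZ, a log2 ratio of -0.97, but -0.03 by fragments. Of the TET partners, OGT, the O-GlcNAc transferase that binds TET proteins, had 25.3 ± 0.75 FPKM in shPSPC1 and 21.5 ± 0.61 FPKM in shLacZ. TDG, the glycosylase that removes oxidised methylcytosine, had 14.1 FPKM in shPSPC1 and 12.6 FPKM in shLacZ. The highest of this list were APEX1, the base-excision endonuclease, at 86.0 FPKM in shPSPC1 and 90.5 FPKM in shLacZ, and IDH1, which makes the TET cofactor 2-oxoglutarate, at 79.2 FPKM in shPSPC1 and 63.8 FPKM in shLacZ.

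For PRC2, the histone-binding subunit RBBP4 had 9.14 FPKM in shPSPC1 and 7.71 FPKM in shLacZ, and its relative RBBP7 had 104 FPKM in shPSPC1 and 91.2 FPKM in shLacZ. PHF19, a subunit that recruits PRC2 to chromatin, had 21.4 FPKM in shPSPC1 and 22.3 FPKM in shLacZ. Of the H3K27 antagonists, SMARCB1, a SWI/SNF subunit, had 19.4 FPKM in shPSPC1 and 17.9 FPKM in shLacZ. NSD2, an H3K36 methyltransferase, had 24.8 ± 0.77 FPKM in shPSPC1 and 35.8 ± 95.8 FPKM in shLacZ, and that interval leaves its level in shLacZ cells undetermined.

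Of 23 subunits of PRC1, the complex that ubiquitinates histone H2A, 19 reached 1 FPKM in either library, the minimum of the rule. Of these 0 rose and 2 fell by summed FPKM, beside 1.96% of all genes lower, and 1 fell by fragments, beside 1.67% lower. BMI1, a core ring-finger subunit, fell to 8.60 ± 0.49 FPKM in shPSPC1 cells, against 18.5 ± 0.79 FPKM in shLacZ cells, a log2 ratio of -1.02, and -0.96 by fragments. The read-through transcript COMMD3-BMI1, which shares the BMI1 exons, had 4.56 FPKM in shPSPC1 cells and was listed at 0 in shLacZ cells, and the sum of both had 13.2 FPKM in shPSPC1 and 18.5 FPKM in shLacZ, a log2 ratio of -0.46. How much of the BMI1 difference came from the assignment of fragments to the read-through was not tested. SCMH1, a Polycomb-associated protein, was listed at 0 in shPSPC1 cells and had 5.33 FPKM in shLacZ cells, and an exact 0 can be a failed estimate, as PHC1 and PCGF2 were listed at 0 in both.

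Genes that PRC2 or DNA methylation keep silent in many cells were mostly low. Of 22 Polycomb target genes, 15 were below 1 FPKM in both libraries. None of the other 7 passed the rule by either measure, beside 3.63% of all genes by summed FPKM and 3.16% by fragments. FOXA2, an endoderm transcription factor, had 9.05 FPKM in shPSPC1 and 7.79 FPKM in shLacZ, and HOXA10 had 1.52 FPKM in shPSPC1 and 2.18 FPKM in shLacZ. Of 17 germline genes known to be silenced by DNA methylation, 16 were below 1 FPKM in both libraries. The exception was PRAME, a cancer-testis antigen, at 58.9 ± 8.69 FPKM in shPSPC1 and 54.3 ± 1.8 FPKM in shLacZ, while MAGEA3 had 0.347 FPKM in shPSPC1 and 0.486 FPKM in shLacZ.

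DNMT1 and EZH2 are also high in proliferating cells, so 18 S phase genes were set beside them. None passed the rule by either measure, beside 3.63% of all genes by summed FPKM and 3.16% by fragments. Of the 18, 12 lay below 0, beside 49% of all genes, or 13 by fragments, beside 49.3%. The median log2 ratio was -0.09, or -0.12 by fragments. MCM7, a subunit of the replicative helicase, had 107 FPKM in shPSPC1 and 124 FPKM in shLacZ. RRM2, a subunit of ribonucleotide reductase, had 74.3 FPKM in shPSPC1 and 82.3 FPKM in shLacZ. The part of S phase in the levels of DNMT1 or EZH2 was not tested.

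**Figure D5:**
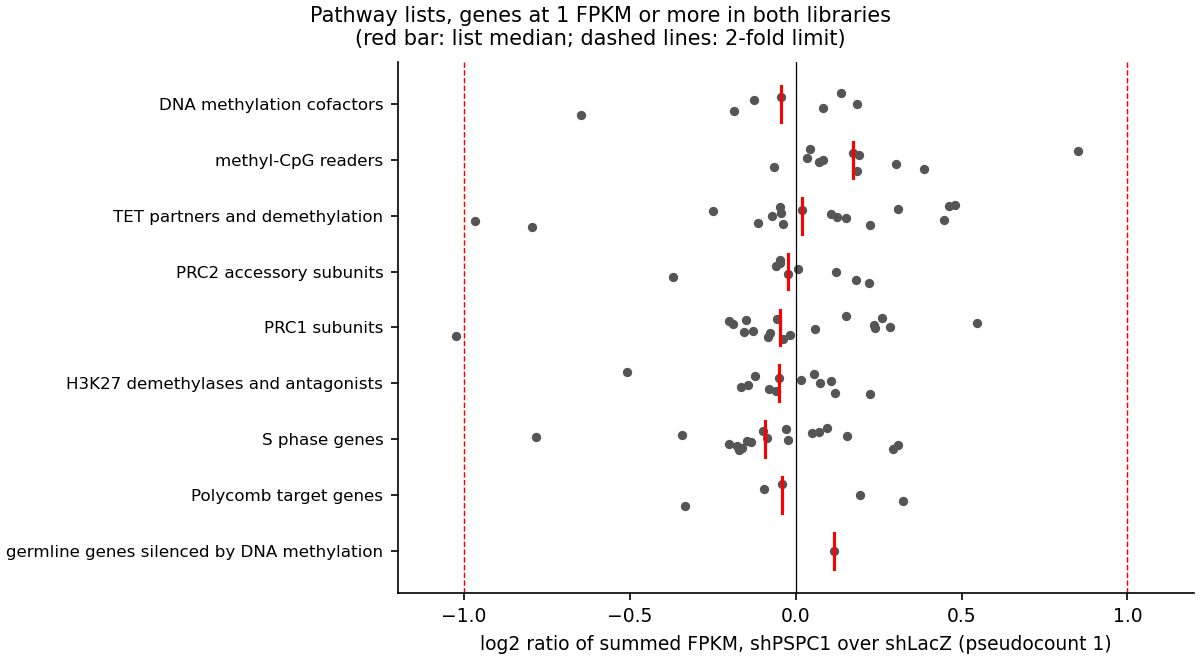
Log2 ratio of summed FPKM, shPSPC1 over shLacZ (horizontal axis), of each gene that reached 1 FPKM in each library, in 9 pathway lists, with list medians in red. Among these points BMI1 in PRC1 lies beyond the 2-fold limit, and SCMH1, listed at 0 in shPSPC1, is not drawn.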

How the data were processed

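RNA of 1 shPSPC1 and 1 shLacZ library was processed with CASAVA 1.8.2, TopHat2 2.0.7 and Cufflinks 2.1.1, per the submitters' processing notes. FPKM and 95% intervals per transcript come from the authors' Cufflinks run, as the deposited attribute names state. No build is named in the sources used here, so coordinates are those of the files. Annotated transcripts were joined to genes by RefSeq accession, gene identifier, a shared intron or exon lengths (at least 3 internal exons), using RefSeq and GENCODE 29 tables on GRCh38 for names, exon structure and sequence only. Assembled stranded transcripts were added where they shared an intron. Gene FPKM was the sum, with half-widths joined as a root of summed squares. Depth was estimated from transcripts that stand alone, for which 95.7% of shPSPC1 and 95.5% of shLacZ values came out as whole fragments within 0.02. Python 3 scripts with numpy did the calculations and were tested on simulated data. The members and gene lists were chosen with earlier results of these data known. Named genes were the 10 members, list genes past the rule of size by either measure, the 2 highest of each list, and PSPC1, UHRF1, RBBP4, OGT and TDG. CXXC5 and HDAC2 were added after their values were seen. One gene that this rule names is not reported here.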

Additional observations from a re-analysis of the deposited data

Results flagged for a closer look

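Assembled pieces without a strand lie outside the transcripts used above, and inside TET2 and EED they held more fragments in the shPSPC1 library than in the shLacZ library, with counting intervals apart. Inside DNMT3A and TET3 the direction was the opposite, also with intervals apart, at 18 fragments in shPSPC1 against 63 in shLacZ for DNMT3A and 0 in shPSPC1 against 11 in shLacZ for TET3. Inside TET2 there were 12 such pieces with an estimated 209 fragments in shPSPC1 cells, against 1 piece with 13 fragments in shLacZ cells, and none touched an exon. Inside EED there were 2 pieces with 18 fragments in shPSPC1 cells and no piece in shLacZ cells. A library without a piece was given an interval of 0 with no width, so the separation for EED and TET3 has an interval on 1 side only. TET2 and DNMT3A had an interval in both libraries. The shares over all genes were counted in the same way. Strandless fragments were higher in shPSPC1 with intervals apart for 16.8% of 10813 genes and lower for 9.91%. The shPSPC1 file held 36255 strandless pieces in all and the shLacZ file 29208. The part of this file-wide difference in the TET2 and EED values was not tested.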

How the results depend on the processing

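No member passed the rule of size under any of the 12 alternatives run. Of 80 member log2 ratios recomputed under 8 alternatives, 70 stayed within the interval half-width of the value reported and 10 moved, 5 of them with RefSeq transcripts only, where DNMT3B reached 0.57 and TET3 -0.32. The number of members below 0, 8 as reported, was 5 with RefSeq transcripts only and 4 after rescaling without mitochondrial genes, which moved the median of all genes to 0.09. Against 418 genes past the rule, 192 higher and 226 lower, RefSeq transcripts only gave 1037 (519 higher, 518 lower) and a pseudocount of 5 gave 159 (72 higher, 87 lower). A pseudocount of 0.1 gave 625 (289 higher, 336 lower), a 1.5-fold limit 1124 and a minimum of 5 FPKM 261. The 2 pathway list genes past the rule became 1 by estimated fragments, with the most abundant transcript only and with a pseudocount of 5, and 12 with RefSeq transcripts only. Of 54 list medians 3 moved beyond the median half-width: Polycomb target genes to -0.33 with RefSeq transcripts only, and DNA methylation cofactors to 0.11 and the single germline gene to -0.32 with the most abundant transcript only. Causes were not tested. The EZH2 alternative by fragments was chosen after seeing the data. No paired analysis was possible because each group has 1 library, and for the same reason no replicate could be left out. The fewest fragments stood behind TET1, at 441 in shPSPC1 and 357 in shLacZ, and DNMT3B, at 526 in shPSPC1 and 530 in shLacZ.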
